A study of Mus musculus with 19 samples.

Results

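The genes described here are 55 cell cycle genes, taken by name from an expression matrix of 12778 mouse genes, in which every one of the 55 was found. They comprise 14 genes that act at the passage from G1 into S phase (D-type and E-type cyclins, their kinases Cdk2, Cdk4 and Cdk6, and E2f1 to E2f6), 21 genes of DNA replication and 20 genes of mitosis. RNA was measured by 3′-end sequencing (QuantSeq, in which a transcript gives reads near its polyadenylated end) in 19 libraries of mouse stem cells that lacked the miR-290 cluster, the miR-302 cluster, both or neither. Induced pluripotent stem cells (iPSC) came from embryonic fibroblasts reprogrammed by Oct4, Sox2 and Klf4 and were harvested more than 18 passages later, and embryonic stem cells (ESC) had been derived as such. All 6 groups were grown with LIF and serum. The iPSC groups were WT (3 libraries), miR-290KO, miR-302KO and the double KO (genotype miR-290KO;miR-302KO), each KO group with 2 colonies of 2 libraries each, and the ESC groups were miR-290KO and miR-302KO, with 2 libraries each. A colony is 1 independently derived line and was counted as 1 sample, so each KO iPSC group had n = 2. The design text excepts the WT iPSC from independent derivation, so that the spread of the 3 WT libraries may be technical. Each WT and each ESC library was counted as 1 sample, and the ESC libraries carry no colony label. The shared estimate of spread in the tests below therefore draws on single libraries as well as on colonies. A WT or double KO ESC line was not analysed here.

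In the cell cycle, D-type cyclins with Cdk4 or Cdk6 and E-type cyclins with Cdk2 phosphorylate the retinoblastoma proteins, which releases E2F transcription factors to switch on S phase genes. In G1, the origin recognition complex, Cdc6 and Cdt1 load the Mcm helicase onto DNA, the GINS complex helps to activate it, and polymerases, the Pcna clamp and its loader then copy the genome, before the A-type and B-type cyclins with Cdk1, the Aurora and Polo kinases and the spindle checkpoint take cells through mitosis. Mouse pluripotent cells are known for a short G1 phase and high cyclin E, and microRNAs of the miR-290 and miR-302 clusters, the most abundant ones of these cells, are known to promote the entry into S phase by repressing inhibitors of the cyclin E kinase.

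Sequences of microRNAs of the deleted clusters are shown first, because their shared seed (bases 2 to 8, in capitals, which pair with target transcripts) is what both clusters have in common. The mature sequences, 5′ to 3′, are those of RefSeq on GRCm38.p6, in which the miR-302 cluster lies on chromosome 3 and the miR-290 cluster on chromosome 7.
miR-302b-3p: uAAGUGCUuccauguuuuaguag
miR-302d-3p: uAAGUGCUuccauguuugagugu
miR-291a-3p: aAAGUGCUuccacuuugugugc
miR-294-3p: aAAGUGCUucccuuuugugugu
miR-295-3p: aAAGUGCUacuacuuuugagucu
miR-302c-3p: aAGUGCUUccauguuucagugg
miR-290a-3p: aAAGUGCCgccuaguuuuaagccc
miR-367-3p: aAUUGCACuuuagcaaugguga
Of the sequences shown, the first 5, 2 from the miR-302 cluster and 3 from the miR-290 cluster, carry the seed AAGUGCU. The seed of miR-302c-3p starts 1 base further on in the same run of letters, that of miR-290a-3p differs in its last base, and miR-367-3p has an unrelated seed. The clusters also hold miR-302a-3p and miR-292a-3p, which are named only.

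Matches to the seed AAGUGCU were searched in the longest annotated 3′ UTR of each gene (GENCODE, GRCm38), as AGCACTT or GCACTTA on the transcript strand, which can overlap. At least 1 match was present in 7 of 14 G1-S members (50.0%), 5 of 21 replication members (23.8%) and 1 of 20 mitosis members (5.0%), beside 20.8% of the 11865 genes of the matrix with a 3′ UTR. The median 3′ UTR was 1324 bases long in the G1-S members, 526 in the replication members and 634 in the mitosis members, beside 1155 over all genes, and a longer UTR holds more matches of any kind. All sites found in Ccnd2 and E2f2, which were higher in the double KO, and in Cdk6, which was lower, are shown with the match in capitals.
Ccnd2 (chr6:127129337-127129358, minus strand): tccattagaaaAGCACTTtgaa
E2f2 (chr4:136193328-136193350, plus strand): ctttttcaagaAGCACTTAacgc
E2f2 (chr4:136193559-136193580, plus strand): ttgaattaattGCACTTAggct
E2f2 (chr4:136194367-136194388, plus strand): ctcagtggggcAGCACTTtttg
Cdk6 (chr5:3521841-3521862, plus strand): tctcaaccaccAGCACTTctaa
Cdk6 (chr5:3525320-3525342, plus strand): cccgcacattcAGCACTTAtgga
Cdk6 (chr5:3528422-3528444, plus strand): ataatagaaagAGCACTTAgcag
These are descriptions of letters in an annotated UTR, not measured binding. A match was present in 2 of the 8 members that were higher in the double KO, 5 of the 17 that were lower and 6 of the 30 that were not called, so matches stood among members of either direction.

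The values below are CPM (reads scaled to a common library total) of whole reads recovered from the deposited log2 matrix, with library totals of 6449513 to 25039303 reads, and log2 fold changes with their standard error (SE) and adjusted p come from 1 limma fit over all 6 groups. A gene was called when its p, adjusted by the Benjamini-Hochberg method over all 12778 genes, was under 0.05. Reads were recovered for 54 of the 55 members, and Tyms, a thymidylate synthase, has log2 values only. The second library of miR-302KO colony 1 stood apart. Its mean correlation to its group was 0.852, where the other colony libraries of that group had 0.904 or more. Of 54 members, 28 differed more than 2-fold between it and the first library of the same colony. In the other KO iPSC colonies 0 to 6 of 54 members did so. The share over all genes was not counted, so this does not set the members apart from other genes. The iPSC label of the double KO was at odds with its pluripotency markers: the summed level of 9 markers was 253.4 ± 66.1 CPM (mean ± SD, n = 2 colonies, libraries 196.9 to 306.5) against 3152.7 ± 319.4 CPM in WT (n = 3, libraries 2791.3 to 3397.4), all 10 markers fitted were called lower, and Esrrb, Zfp42, Utf1 and Dnmt3l were near 0. The single KO lines kept these markers, at 3871.6 CPM in miR-290KO and 3701.7 CPM in miR-302KO iPSC. Of the fibroblast markers 3 of 10 were in the matrix, and summed to 3.8 to 42.4 CPM in the double KO libraries and 5.8 to 6.7 CPM in WT, with the higher double KO values in colony 1. These 3 went different ways on the log2 scale: Fbln2 was called higher (4.20), Thy1 was called lower (−3.86) and Col1a1 was not called (−1.92). Gata4, the 1 of 6 primitive endoderm markers present, was at 0 in the double KO, and 5 of 6 trophoblast markers summed to 3.3 to 43.2 CPM there and 111.2 to 500.6 CPM in WT. The part of this change of cell state in any result on the double KO below was not tested.

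The double KO differed from WT iPSC in 25 of the 55 members, 8 higher and 17 lower, where the background over all genes was 49% called, 27.4% higher and 21.5% lower. By subset, 3 of 14 G1-S members were higher and 5 lower, 2 of 21 replication members were higher and 11 lower, and 3 of 20 mitosis members were higher and 1 lower. The median log2 fold change was 0.05 for the G1-S members, −0.65 for the replication members and 0.06 for the mitosis members, beside 0.16 over all genes. With median-of-ratios scaling the median over all genes moved to −0.09, and the share of called genes that were higher went from 56% to 44.1%. The replication median was then −0.90, with 1 member higher and 13 lower, and the medians of the G1-S members (−0.20) and of the mitosis members (−0.19, with 2 higher and 2 lower) turned negative. In the plot of fold changes by subset most called replication members lie left of 0.

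**Figure D1:**
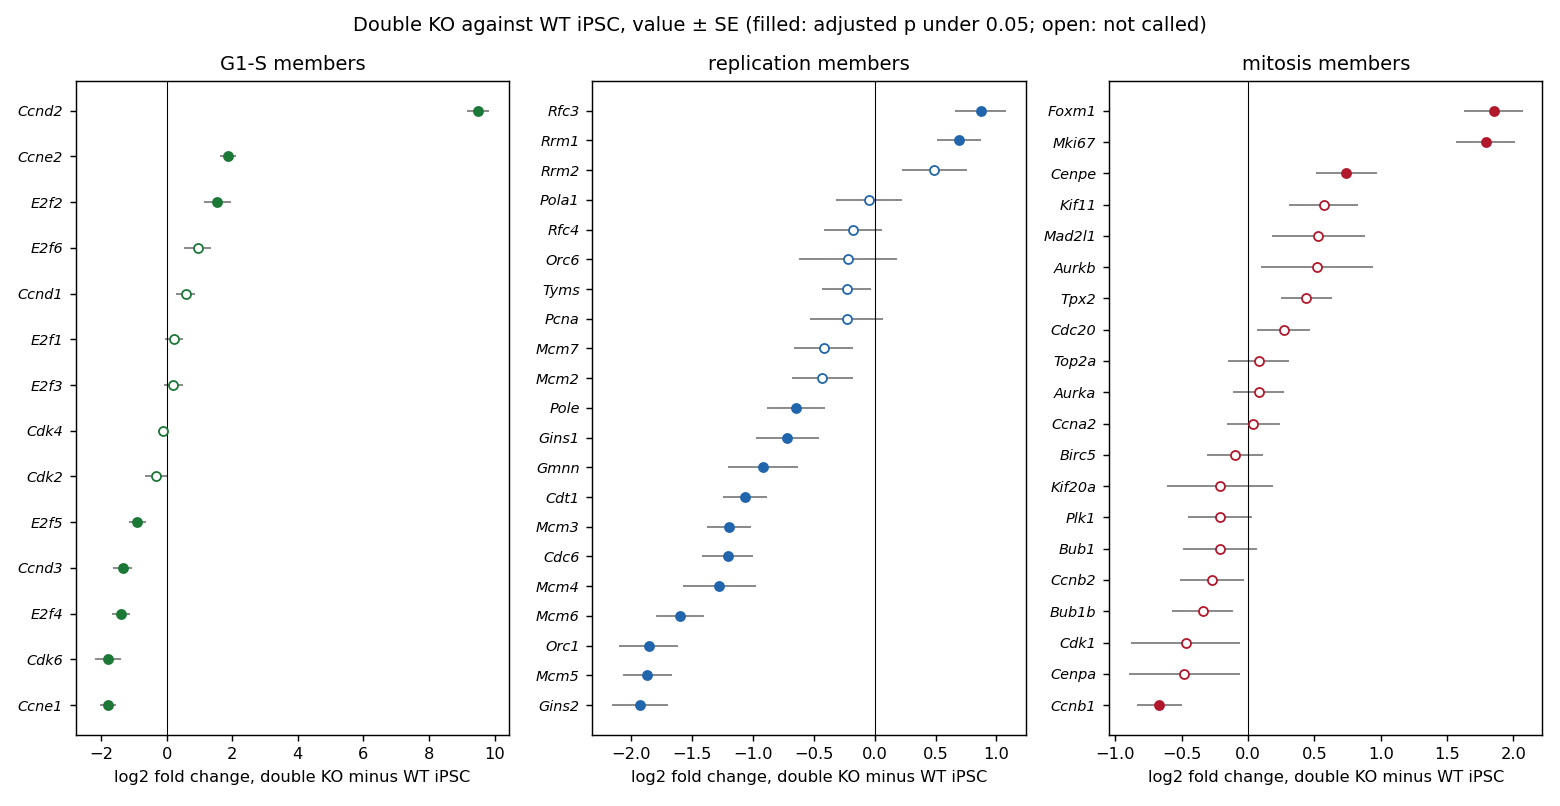
Log2 fold change of each of the 55 members in double KO against WT iPSC, in 3 panels for the G1-S, replication and mitosis members, with SE as the horizontal line and filled points for adjusted p under 0.05; the panels have different horizontal scales. Ccnd2 stands at 9.50, 11 replication members are filled and left of 0, and most mitosis members are open and close to 0.

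By libraries, all 4 double KO libraries lay above all 3 WT libraries for 12 of the 54 members with reads, below them for 22, and overlapped with them for 20, beside 36.5% above and 26.6% below over all genes with reads. Against all 15 other libraries, the double KO lay wholly above for 7 members (Ccnd2, E2f6, Rfc3, Rrm1, Mki67, Mad2l1 and Foxm1) and wholly below for 11 (Ccnd3, Ccne1, Cdk6, Mcm3, Mcm5, Mcm6, Mcm7, Cdc6, Cdt1, Pole and Gins2), beside 19.9% and 12.1% over all genes. The 11 below hold 8 replication members and no mitosis member.

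**Figure D2:**
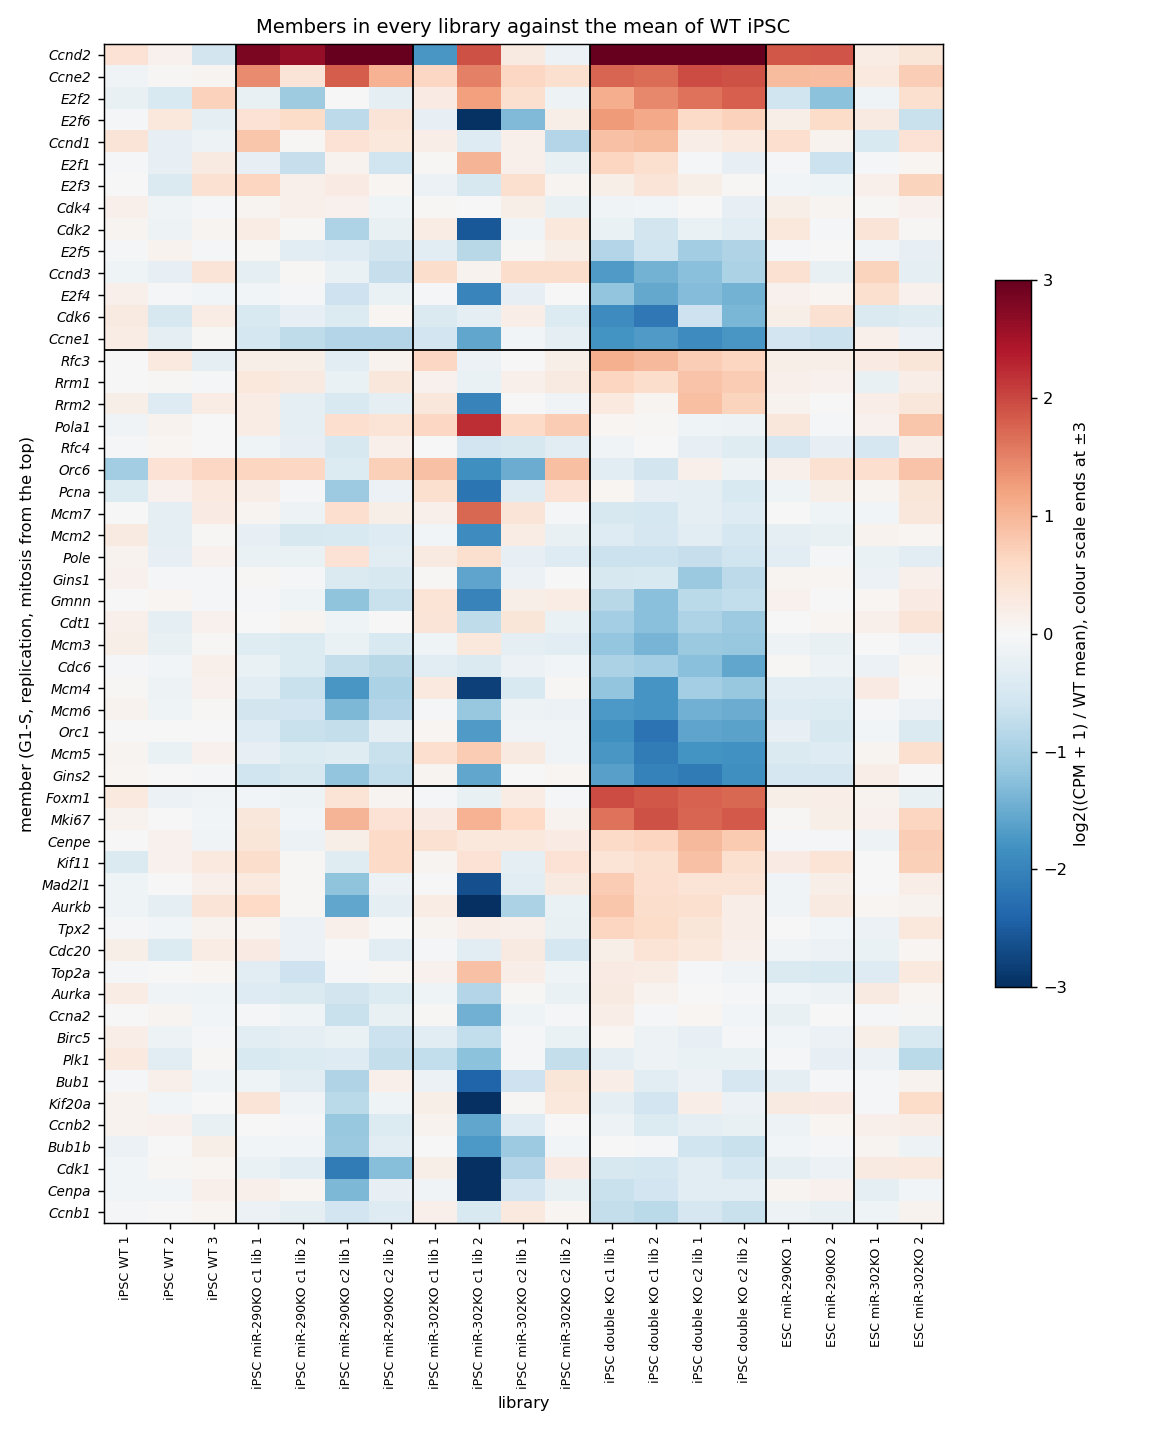
Heat map of 54 members (rows, grouped as G1-S, replication and mitosis) in 19 libraries (columns), coloured by the log2 ratio of CPM + 1 to the WT iPSC mean, on a scale that ends at ±3. The 4 double KO columns are blue for most replication members and red for Ccnd2, Foxm1 and Mki67, and the second library of miR-302KO colony 1 differs from the other 3 libraries of its group over many rows.

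Cyclin D2 was the member that changed most. Ccnd2 (chr6:127125162-127152193, minus strand) encodes a D-type cyclin that activates Cdk4 and Cdk6, and had 7.63, 6.09 and 3.36 CPM in the 3 WT iPSC libraries. In the double KO it had 3845 and 5006 CPM in colony 1 and 3611 and 3727 CPM in colony 2. The lowest double KO library was far above the highest WT library (log2 fold change 9.50, SE 0.34, adjusted p = 4.91e-10). Ccnd2 lies on chromosome 6, where the median of 584 genes in this comparison was 0.65, and with each chromosome's median set to 0 its log2 fold change was 8.86. It made up most of the summed G1-S level of the double KO: the 14 members summed to 5140.9 ± 628.9 CPM (n = 2) against 1268.6 ± 143.5 CPM in WT (n = 3), and without Ccnd2 to 1093.6 ± 94.3 against 1262.9 ± 143.7 CPM.

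The other D-type cyclins did not follow it. Ccnd1 had 239.9, 155 and 164 CPM in WT and 335, 356, 211 and 224 CPM in the double KO, where colony 1 lay above WT and colony 2 within it (log2 fold change 0.58, SE 0.29, adjusted p = 0.117). Ccnd3 fell, from 214, 197 and 305 CPM in WT to 72.1, 87.2, 97.2 and 121 CPM in the double KO. Every double KO library was below every library of the other 5 groups for Ccnd3 (log2 fold change −1.34, SE 0.30, adjusted p = 0.0029). Cdk4, the main partner of these cyclins, had 332, 275 and 289 CPM in WT and 276, 280.4, 299.8 and 252 CPM in the double KO, overlapping ranges (log2 fold change −0.11, SE 0.16, adjusted p = 0.599). The second partner, Cdk6, was low everywhere and lower in the double KO, with 12.6, 7.09 and 12.1 CPM in WT and 2.08, 1.56, 6.29 and 3.36 CPM in the double KO (log2 fold change −1.78, SE 0.39, adjusted p = 0.0023). The Cdk6 groups did not overlap, although the first library of double KO colony 2 came close to the lowest WT library. Without double KO colony 1 the Cdk6 log2 fold change was −1.13, still called.

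The E-type cyclins moved in opposite directions. Ccne1, which with Cdk2 drives the entry into S phase, had 214, 151 and 188 CPM in WT and 51.6, 55.9, 48.9 and 54.0 CPM in the double KO (log2 fold change −1.79, SE 0.25, adjusted p = 9.92e-05). Its paralog Ccne2 had 16.1, 17.8 and 18.4 CPM in WT and 60.7, 57.9, 70.2 and 68.6 CPM in the double KO (log2 fold change 1.87, SE 0.25, adjusted p = 6.77e-05). Neither gene had overlapping groups, and within the double KO the 4 libraries of each gene were close together. Cdk2, the kinase of both, had 91.1, 77.8 and 91.8 CPM in WT and 74.8, 58.6, 75.6 and 69.8 CPM in the double KO: all 4 values were below the lowest WT value, but by less than the fit over all groups resolved (log2 fold change −0.32, SE 0.33, adjusted p = 0.444). The authors' deposited table lists Cdk2 as lower (log2 fold change −0.61, SE 0.17).

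**Figure D3:**
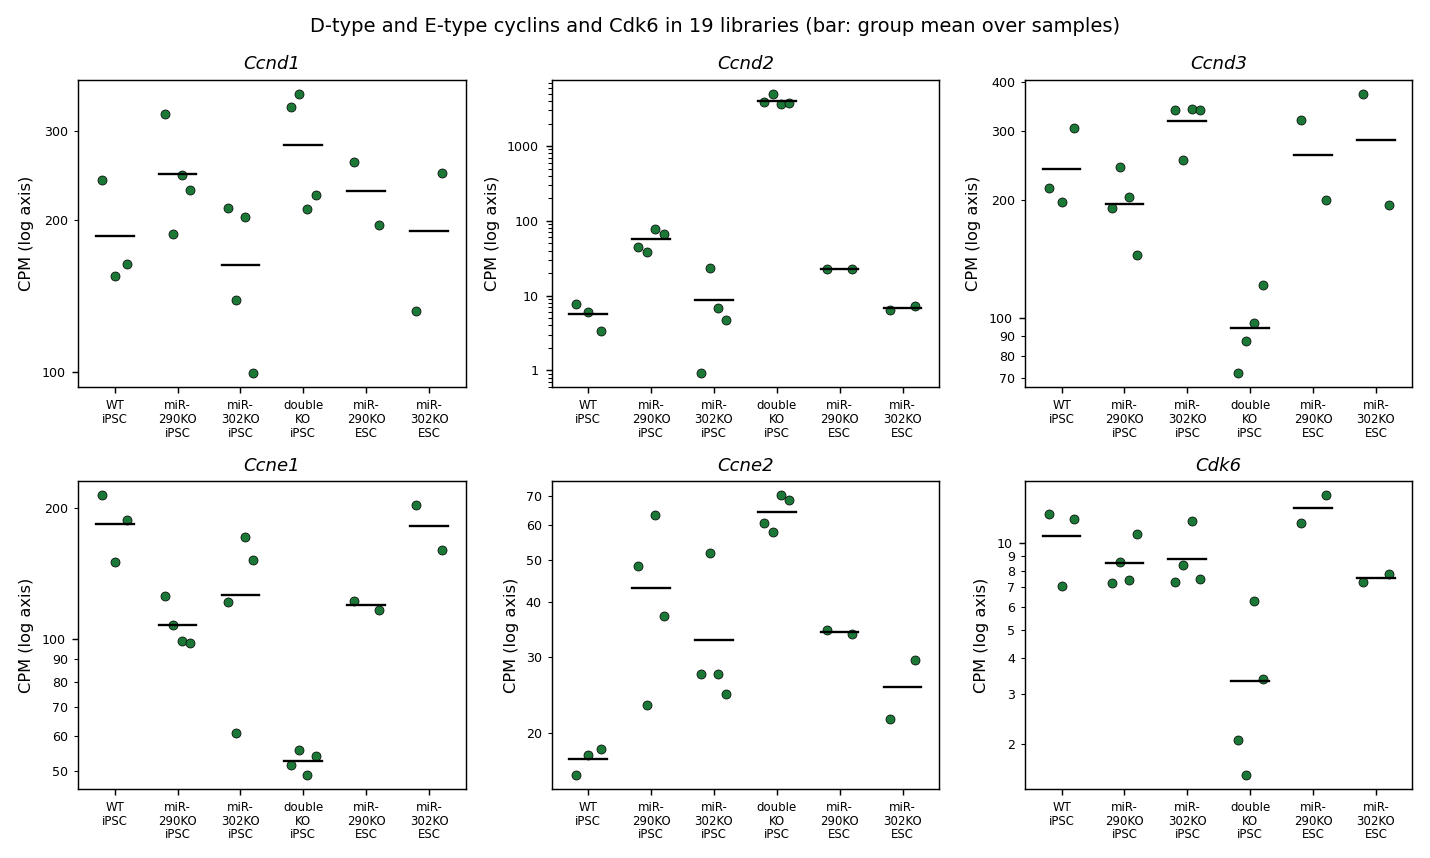
CPM on log axes of Ccnd1, Ccnd2, Ccnd3, Ccne1, Ccne2 and Cdk6 in the 19 libraries of 6 groups; each point is a library and the bar is the group mean over samples. Ccnd2 is at 3611 CPM or more in the 4 double KO libraries, Ccnd3 and Ccne1 are lowest there, and Ccne2 is higher in the double KO than in any WT library.

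Among the E2F factors, 1 activator rose and 2 repressors fell. Of the activators E2f1, E2f2 and E2f3, E2f2 was called: it had 14.8, 12.4 and 28.7 CPM in WT and 38.6, 49.0, 55.8 and 63.5 CPM in the double KO, with no overlap (log2 fold change 1.54, SE 0.41, adjusted p = 0.00756). E2f1 had 71.6, 60.8 and 88.6 CPM in WT and 115, 102, 71.1 and 61.5 CPM in the double KO, overlapping (log2 fold change 0.22, SE 0.28, adjusted p = 0.543). E2f3 had 23.96, 17.8 and 33.5 and 27.8, 32.0, 27.8 and 24.9 CPM in the same groups and overlapped as well (log2 fold change 0.20, SE 0.29, adjusted p = 0.582). The factors that mainly repress in quiescent cells with pocket proteins, E2f4 and E2f5, both fell. E2f4 had 80.1, 69.2 and 67.9 CPM in WT and 31.2, 24.2, 28.8 and 26.5 CPM in the double KO (log2 fold change −1.39, SE 0.26, adjusted p = 0.000862). E2f5 had 28.5, 31.6 and 28.4 CPM in WT and 15.4, 19.3, 13.8 and 15.2 CPM in the double KO (log2 fold change −0.89, SE 0.25, adjusted p = 0.0101). All double KO libraries lay below WT for both genes. E2f6, a repressor that acts without pocket proteins, had 19.8, 25.4 and 16.5 CPM in WT and 50.8, 45.5, 30.8 and 33.4 CPM in the double KO: the groups did not overlap, but the test was not passed (log2 fold change 0.95, SE 0.41, adjusted p = 0.0729). The calls of E2f2 and E2f5 were lost when double KO colony 2 was left out.

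Most of the called replication members fell in the double KO. The 11 that were called lower are the helicase subunits Mcm3, Mcm4, Mcm5 and Mcm6, the loading factors Orc1, Cdc6 and Cdt1, the Cdt1 inhibitor Gmnn, the GINS subunits Gins1 and Gins2 and the leading strand polymerase Pole. Their summed level was 1026.2 ± 71.0 CPM in the double KO (n = 2, libraries 891.5 to 1090.4) and 2618.2 ± 252.6 CPM in WT (n = 3, libraries 2328.5 to 2792.3), a description of genes chosen by that same contrast. The other 9 replication members with reads summed to 2096.7 ± 214.5 CPM in WT and 1981.1 ± 117.5 CPM in the double KO. In such bulk samples, fewer cells in S phase and less RNA per cell cannot be told apart.

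The largest decreases were in the GINS, Mcm and origin recognition genes. Gins2 had 131, 124 and 123 CPM in WT and 40.3, 29.9, 28.4 and 34.3 CPM in the double KO (log2 fold change −1.93, SE 0.23, adjusted p = 2.36e-05). Mcm5 (chr8:75109569-75128439, plus strand) had 458, 379 and 471 CPM in WT and 128, 100.4, 125 and 123 CPM in the double KO (log2 fold change −1.87, SE 0.20, adjusted p = 1.11e-05). Orc1, the largest subunit of the origin recognition complex, had 67.0, 65.8 and 67.1 CPM in WT and 17.9, 13.7, 21.5 and 21.4 CPM in the double KO (log2 fold change −1.86, SE 0.24, adjusted p = 5.42e-05). For these 3 genes every double KO library was below the lowest WT library. Mcm6 had 522, 443 and 497 CPM in WT and 148, 143, 179 and 173 CPM in the double KO (log2 fold change −1.60, SE 0.20, adjusted p = 4.27e-05). Mcm4 had 326, 284 and 349 CPM in WT and 140.4, 93.3, 157 and 144 CPM in the double KO (log2 fold change −1.28, SE 0.30, adjusted p = 0.00377). Mcm3 had 621, 471 and 562 CPM in WT and 244, 209, 253 and 249.5 CPM in the double KO (log2 fold change −1.20, SE 0.18, adjusted p = 0.00014). The other Mcm subunits of the ring were not called: Mcm2 changed by −0.43 and Mcm7 by −0.42 on the log2 scale, although all double KO libraries were below all WT libraries for both.

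Of the loading factors, Cdc6 had 92.8, 91.2 and 107 CPM in WT and 49.3, 47.3, 40.2 and 32.1 CPM in the double KO (log2 fold change −1.21, SE 0.21, adjusted p = 0.000495). Its partner Cdt1 had 318, 234 and 309 CPM in WT and 140.0, 118, 150.1 and 134 CPM in the double KO (SE 0.18 on the log2 scale, adjusted p = 0.000406). Neither gene had overlapping groups. The calls of Gins1 (log2 fold change −0.72), Pole (−0.65) and Gmnn (−0.92) were the least stable, being lost under 10, 8 and 5 of the 25 alternatives run, and that of Mcm4 was lost when each library counted as a sample. Against this trend, Rfc3, a subunit of the clamp loader, was higher, with 44.5, 55.2 and 36.3 CPM in WT and 94.9, 88.9, 75.0 and 70.8 CPM in the double KO (log2 fold change 0.87, SE 0.21, adjusted p = 0.00463). Rrm1, the large subunit of ribonucleotide reductase, was higher too, with 146, 149 and 139 CPM in WT and 225, 208, 262 and 245 CPM in the double KO (log2 fold change 0.69, SE 0.18, adjusted p = 0.00714). Both sets of double KO libraries were above every other library, but the Rrm1 call was lost with median-of-ratios scaling (0.45, adjusted p = 0.053 by limma) and without double KO colony 2, and the Rfc3 call without double KO colony 1. The clamp Pcna, Pola1, Rfc4, Orc6, Rrm2 and Tyms were not called, with log2 fold changes from −0.23 to 0.49.

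Promoter sequences are shown for some of the members that fell together and for 2 mitosis genes. E2F-type sites are the known shared element of S phase genes and the cell cycle homology region that of mitosis genes. RefSeq promoter windows of 300 bases (GRCm38.p6, 250 before to 50 after the start) were matched for 40 of the 55 members and searched on both strands, with counts per gene. An E2F-type site (TTTCCCGC, TTTGGCGC, TTTCGCGC or TTTGCCGC) was found in 9 of 16 replication members (56.2%), 3 of 9 G1-S members (33.3%) and 1 of 15 mitosis members (6.7%), beside 2.6% of the 27025 genes of the table and 4.8% of those in the matrix. It was found in 6 of 6 replication members that were lower in the double KO (Mcm3, Mcm5, Mcm6, Orc1, Cdc6 and Cdt1) and in 2 of 8 that were not called, but also in Rfc3, 1 of the 2 that were higher. The other 5 of the 11 lowered replication members had no window in the table. In Mcm3 and Cdt1 no E2F-type site lay wholly before the start, and their windows are not printed. A cell cycle homology region (TTTGAA or TTCGAA) was found in 11 of 15 mitosis members (73.3%), 3 of 16 replication members (18.8%) and 21.7% of the table. A CCAAT box (CCAAT) was found in 13 of 15 mitosis members (86.7%), 12 of 16 replication members (75.0%) and 41.1% of the table. The last 160 bases before the start are printed, with the matches to any of these motifs in capitals; matches on opposite strands overlap in Mcm5 and Mcm6.
Mcm5 (chr8:75109349-75109508, plus strand): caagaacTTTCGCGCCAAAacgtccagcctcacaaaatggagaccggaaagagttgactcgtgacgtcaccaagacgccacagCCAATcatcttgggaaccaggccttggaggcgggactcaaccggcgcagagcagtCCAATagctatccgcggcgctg
Mcm6 (chr1:128359706-128359865, minus strand): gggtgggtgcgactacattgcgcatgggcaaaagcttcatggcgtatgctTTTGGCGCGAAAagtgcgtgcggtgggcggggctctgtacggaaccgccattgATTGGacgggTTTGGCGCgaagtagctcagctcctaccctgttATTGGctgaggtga
Orc1 (chr4:108579294-108579453, plus strand): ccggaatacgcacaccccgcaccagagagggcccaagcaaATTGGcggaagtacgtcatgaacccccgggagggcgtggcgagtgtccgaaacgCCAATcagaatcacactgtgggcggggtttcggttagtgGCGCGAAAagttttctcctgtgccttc
Cdc6 (chr11:98907991-98908150, plus strand): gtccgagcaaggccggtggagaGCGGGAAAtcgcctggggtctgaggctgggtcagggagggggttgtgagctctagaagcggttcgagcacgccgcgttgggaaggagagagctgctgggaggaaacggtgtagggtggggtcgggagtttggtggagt
Mki67 (chr7:135716380-135716539, minus strand): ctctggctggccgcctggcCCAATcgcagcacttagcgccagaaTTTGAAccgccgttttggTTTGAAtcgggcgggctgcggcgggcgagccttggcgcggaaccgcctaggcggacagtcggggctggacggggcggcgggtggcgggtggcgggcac
Cdk1 (chr10:69352913-69353072, minus strand): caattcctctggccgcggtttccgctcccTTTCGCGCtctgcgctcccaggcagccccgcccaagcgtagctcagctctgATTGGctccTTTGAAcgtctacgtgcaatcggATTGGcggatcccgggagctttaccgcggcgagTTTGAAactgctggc
Mcm5, Mcm6, Orc1 and Cdc6 fell in the double KO, Mki67 rose, and Cdk1, with 2 cell cycle homology regions and an E2F-type site in this stretch, was not called. These matches are letters in a window and no test was made of them.

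Of the mitosis members 16 of 20 were not called, and the 20 summed to 5005.3 ± 188.0 CPM in the double KO (n = 2) and 4841.7 ± 192.1 CPM in WT (n = 3). Foxm1 (chr6:128362967-128376146, plus strand), the transcription factor that activates genes of G2 and mitosis, had 59.7, 42.8 and 45.2 CPM in WT and 192, 179.8, 169.7 and 163 CPM in the double KO (log2 fold change 1.85, SE 0.22, adjusted p = 2.53e-05). Mki67, which encodes the proliferation marker Ki-67 that coats mitotic chromosomes, had 100.3, 92.5 and 87.7 CPM in WT and 289.7, 356, 316 and 339 CPM in the double KO (log2 fold change 1.79, SE 0.22, adjusted p = 2.86e-05). For both genes every double KO library was above every library of the other groups. With each chromosome's median set to 0, Foxm1, which lies on chromosome 6 like Ccnd2, had a log2 fold change of 1.20 and was still called.

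Cenpe, a kinesin of the kinetochore, had 142, 157 and 134 CPM in WT and 214, 225, 283 and 250.3 CPM in the double KO (log2 fold change 0.74, SE 0.23, adjusted p = 0.0184). Its call was lost with median-of-ratios scaling (0.50), with chromosome centring (0.41), and without double KO colony 2 or WT library 3. Ccnb1, the cyclin of the mitotic kinase, was the mitosis member called lower, with 419.6, 430.1 and 457 CPM in WT and 267, 249, 308 and 275 CPM in the double KO (log2 fold change −0.67, SE 0.17, adjusted p = 0.00601). Its groups did not overlap, and its call was lost without double KO colony 1. Its kinase Cdk1 was not called although its libraries did not overlap, with 540.1, 588 and 602 CPM in WT and 415, 400.2, 452 and 399.8 CPM in the double KO (log2 fold change −0.47, SE 0.41, adjusted p = 0.365). This SE draws on the spread within all 6 groups, not only the 2 compared. The authors' deposited table lists Cdk1 as lower (log2 fold change −0.76, SE 0.12). The remaining mitosis members, among them the Aurora kinases Aurka and Aurkb, Plk1, the checkpoint genes Bub1, Bub1b and Mad2l1, Top2a and Birc5, had log2 fold changes from −0.48 to 0.57 and were not called.

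**Figure D4:**
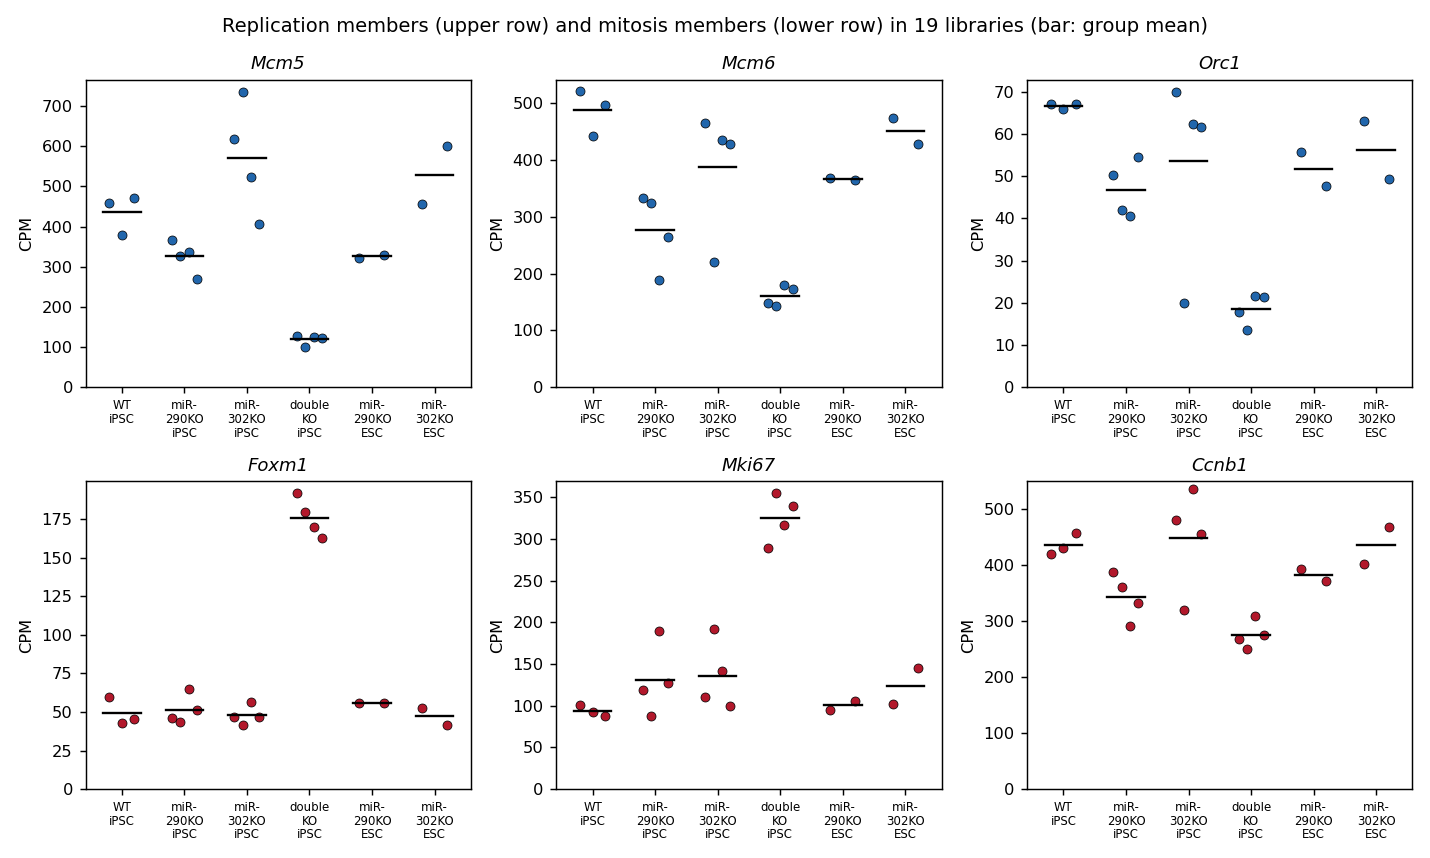
CPM of the replication members Mcm5, Mcm6 and Orc1 (upper row) and the mitosis members Foxm1, Mki67 and Ccnb1 (lower row) in the 19 libraries of 6 groups, with a bar at the group mean over samples and axes that start at 0. The double KO points are lowest for Mcm5 and Mcm6 and highest for Foxm1 and Mki67.

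Other genes of the same processes, outside the 55, were counted for context. Over all genes 49% were called between double KO and WT, 27.4% higher and 21.5% lower, with a median of 0.16. Of 18 other G1-S regulators 15 differed between double KO and WT, 12 higher and 3 lower, with a median of 1.08. The cyclin kinase inhibitor Cdkn1a, which binds cyclin E and Cdk2, had 189.5, 158 and 225 CPM in WT and 769.8, 1011, 878 and 814 CPM in the double KO (log2 fold change 2.19, SE 0.22, adjusted p = 6.57e-06), with no overlap. The inhibitors Cdkn2c (6.11) and Cdkn2a (3.22) and the pocket proteins Rb1 (2.84), Rbl2 (2.73) and Rbl1 (1.19) were also higher on the log2 scale, while Cdkn1c (−2.79), Mybl2 (−2.23) and Cdc25a (−1.19), a phosphatase that activates Cdk2, were lower. Of 40 other replication genes 3 were higher and 17 lower, with a median of −0.49. Among these, Ticrr (−2.03), which helps to fire origins, Recql4 (−1.56), Pold3 (−1.58) and Mcm10 (−1.23) were lower, and Pold2 (1.19), Rpa3 (1.56) and Tk1 (0.85) higher. Of 47 other mitosis genes 8 were higher and 8 lower, with a median of 0.20, from Cdc25b (2.15) and Anln (1.72) to Ccnf (−1.34) and the securin Pttg1 (−2.10). All of these are limma log2 fold changes that passed the test.

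Few members were called in the single KO iPSC. The comparisons of miR-290KO, of miR-302KO and of the double KO with WT share the 3 WT libraries, so their values are given side by side and not correlated. In miR-290KO iPSC 2 of 55 members were called, both higher, where 1.57% of all genes were called and 1.21% called higher. Ccnd2 had 44.2, 38.9, 78.9 and 66.4 CPM in the 4 miR-290KO libraries, all above the WT range given above and far below the double KO (log2 fold change 3.31, SE 0.34, adjusted p = 0.00221). Ccne2 had 48.3, 23.2, 63.4 and 37.2 CPM, again with all 4 libraries above WT (log2 fold change 1.21, SE 0.25, adjusted p = 0.0361). The call of Ccnd2 was lost without miR-290KO colony 2, and that of Ccne2 under 10 of 25 alternatives, among them leaving out any WT library or either miR-290KO ESC library. The other 12 G1-S members had log2 fold changes from −0.77 (Ccne1) to 0.41 (Ccnd1) and were not called. Among the replication members Mcm6 came nearest to the threshold, with 332, 325, 189 and 264 CPM and no library within the WT range (log2 fold change −0.84, SE 0.20, adjusted p = 0.0583). The medians were −0.23, −0.23 and −0.28 for the G1-S, replication and mitosis members, beside 0.14 over all genes.

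In miR-302KO iPSC limma called 0 of the 55 members, where 0.0313% of all genes were called, and 14 members and 1928 of all genes had an unadjusted p under 0.05. Ccnd2 had 0.912, 23.1, 6.76 and 4.74 CPM in the 4 libraries, lower or higher than WT within 1 colony (log2 fold change −0.05, SE 0.34, adjusted p = 0.959). Ccne2 had 27.4, 51.8, 27.3 and 24.6 CPM, all above WT, without passing the test (log2 fold change 0.84, SE 0.25, adjusted p = 0.263). The other 12 G1-S members had log2 fold changes from −1.24 (E2f6) to 0.47 (E2f2). The medians were −0.14, −0.31 and −0.36 for the 3 subsets, beside −0.11 over all genes, and without the library that stood apart they were −0.04, 0.13 and −0.03. With miR-302KO colony 2 left out, 16 members were called, 3 higher and 13 lower, and 9.96% of all genes. That fit rests on 1 sample, colony 1, which holds the library that stood apart and is assumed to vary like the other groups. Direct comparison of miR-290KO with miR-302KO iPSC called 1 member, Ccnd2 (log2 fold change 3.36, SE 0.37, adjusted p = 0.00207), where 2.25% of all genes were called, and 8 members and 10% of all genes without miR-302KO colony 2, with the same limit.

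**Figure D5:**
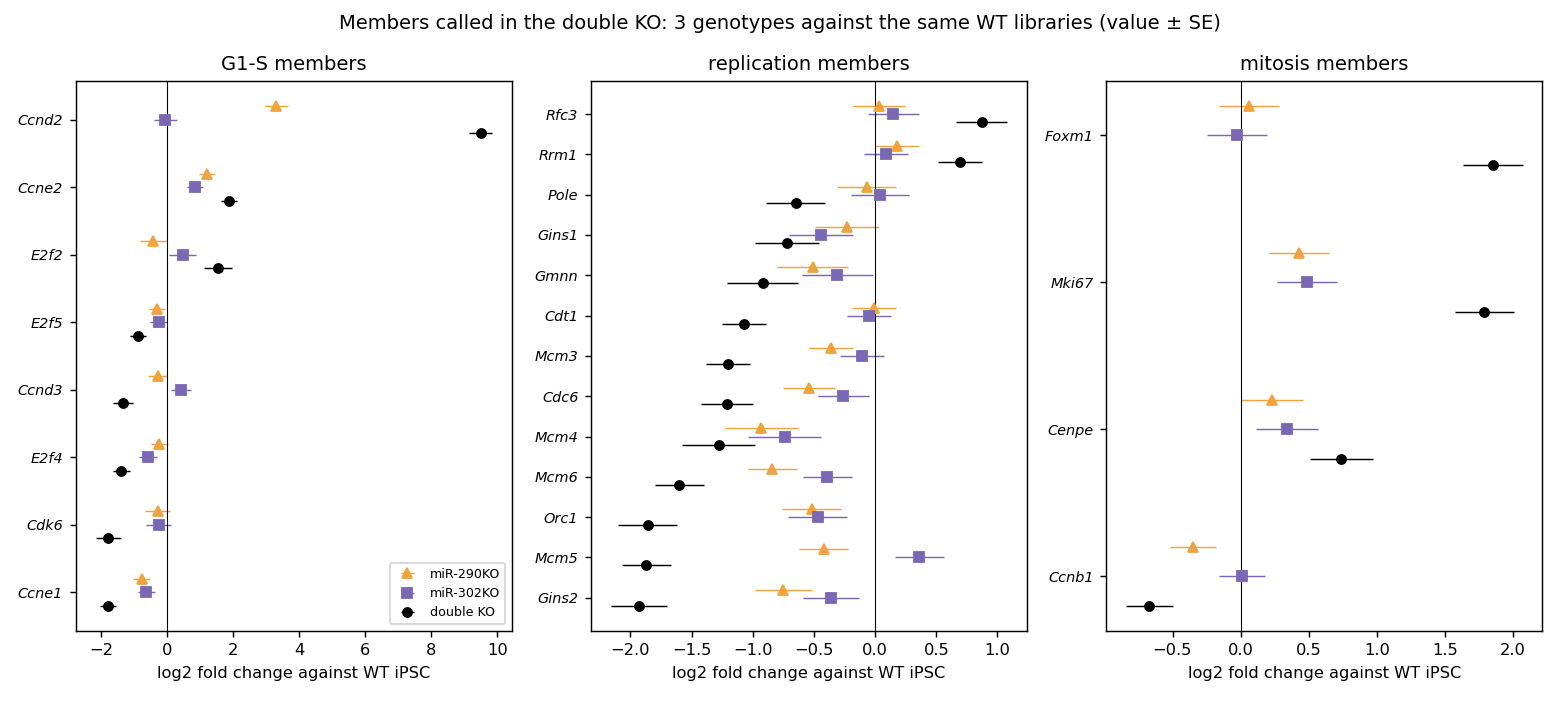
Log2 fold change against the same 3 WT iPSC libraries for miR-290KO (triangles), miR-302KO (squares) and double KO iPSC (circles), with SE as lines, for the 25 members called in the double KO; the panels have different horizontal scales. The members were chosen by the double KO comparison, which uses the same WT libraries; Ccnd2 is at 3.31 in miR-290KO and 9.50 in the double KO.

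Set directly against the miR-290KO iPSC, the double KO had 16 members called, 5 higher and 11 lower, where 32.4% of all genes were called, 15.6% higher and 16.8% lower. The G1-S members split into 2 higher and 4 lower, the replication members into 1 higher and 7 lower, and 2 mitosis members were higher. The largest changes were Ccnd2 (6.19) and E2f2 (log2 fold change 1.95, SE 0.45, adjusted p = 0.00511). E2f2 had 14.8, 7.85, 17.2 and 14.4 CPM in miR-290KO iPSC, below all double KO libraries. Foxm1 had 46.0, 43.5, 64.9 and 51.3 CPM in miR-290KO iPSC, likewise below all double KO libraries (log2 fold change 1.79, SE 0.24, adjusted p = 0.000123). Cdk6 had 7.25, 8.60, 7.44 and 10.7 CPM and Mcm5 367, 328, 338 and 271 CPM in miR-290KO iPSC, above all double KO libraries. The log2 fold change was −1.49 for Cdk6 and −1.45 for Mcm5. Mcm5, Cdt1, Gins2 and E2f4, all called lower here, lie on chromosome 8, whose median in miR-290KO against WT was 0.40. With chromosome centring Gins2 and E2f4 lost the call, and Mcm5 and Cdt1 kept it. The Cdk6 call was lost in 4 of 25 alternatives, the Mcm5 value was −0.93 with chromosome centring, and without miR-290KO colony 1 the count of 16 fell to 10 (22.9% of all genes).

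Against the miR-302KO iPSC 25 members were called in the double KO, 10 higher and 15 lower, where 46.9% of all genes were called, 28.5% higher and 18.4% lower. With median-of-ratios scaling these were 7 higher and 19 lower, the replication members being 0 higher and 13 lower in place of 3 and 10. Without the library that stood apart they were 7 higher and 20 lower. The shares of all genes called under either setting are not given. These counts are therefore not set against the 46.9% of the main fit. Mcm5 had 618, 734, 523 and 406 CPM in miR-302KO iPSC, all above the double KO (log2 fold change −2.23, SE 0.22, adjusted p = 6.74e-06). E2f6 had 16.9, 1.70, 7.47 and 23.0 CPM, all below the double KO, and the lowest of them in the library that stood apart (log2 fold change 2.19, SE 0.45, adjusted p = 0.00177). Foxm1 had 46.7, 41.5, 56.7 and 46.7 CPM, all below the double KO (log2 fold change 1.88, SE 0.24, adjusted p = 5.51e-05). For Aurkb, the kinase of the chromosomal passenger complex, the miR-302KO libraries had 61.3, 2.69, 26.7 and 45.6 CPM and the double KO 94.1, 77.0, 74.5 and 60.5 CPM, which overlapped in 1 library (log2 fold change 1.82, SE 0.46, adjusted p = 0.00636). Without the library at 2.69 CPM the Aurkb log2 fold change was 0.71 and the call was lost, and that of E2f6 was 1.39 and still called. Ccnd2 differed by 9.55 on the log2 scale.

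Whether the double KO differed from the sum of the single KO changes was tested as 1 contrast, double KO minus miR-290KO minus miR-302KO plus WT. It called 10 of the 55 members, 5 higher and 5 lower than the sum, where 23.6% of all genes were called, 12% higher and 11.7% lower. With median-of-ratios scaling it was 4 higher and 8 lower, given without the share of all genes under that scaling. Ccnd2 exceeded the sum by 6.24 on the log2 scale (SE 0.51, adjusted p = 3.23e-06), and Foxm1 by 1.82 (SE 0.33, adjusted p = 0.00192). Mcm5 was below the sum by a log2 difference of −1.81 (SE 0.30, adjusted p = 0.00109). These 3 genes kept the call under all 25 alternatives, Mcm5 at −1.13 with chromosome centring, where the chromosome 8 median in miR-290KO against WT had been 0.40. Cdt1 (−1.01) lost it with chromosome centring and without double KO colony 1. Aurkb (2.13), E2f6 (2.05), Aurka (0.83), Pola1 (−1.31) and Mcm7 (−1.12) lost it without the second library of miR-302KO colony 1 and in 9, 10, 17, 10 and 13 of the 25 alternatives in all, and Ccnd3 (−1.47) lost it in 8: without a trend and without double KO colony 1, either miR-290KO colony, either miR-302KO colony, or WT library 1 or 2. The count of 10 became 20 without miR-302KO colony 2 (29.9% of all genes, with the same limit of 1 sample), 4 without double KO colony 1 (15.3%), 5 without miR-290KO colony 2 (14.4%) or WT library 1 (19.1%), and 6 without miR-302KO colony 1 (15.2%). The contrast was not called for Ccne1, Gins2, Orc1 or Mcm6, whose changes were among the largest in the double KO.

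In the ESC the 2 single KO genotypes could be compared with each other and with the iPSC of the same genotype. Of the 55 members 0 were called between miR-290KO iPSC and ESC by limma, where 0% of all genes were called, with 1 member and 492 genes at an unadjusted p under 0.05. Between miR-302KO iPSC and ESC 0 were called as well, where 0% of all genes were called, with 14 members and 1343 genes at an unadjusted p under 0.05, and 11 members and 7.47% of all genes were called without miR-302KO colony 2, with the same limit of 1 sample that holds the library standing apart. Between miR-290KO and miR-302KO ESC limma called 0 members, where 0.587% of all genes were called, with 4 members and 1632 genes at an unadjusted p under 0.05. Ccnd2 had 22.4 and 22.8 CPM in miR-290KO ESC and 6.51 and 7.30 CPM in miR-302KO ESC, without overlap, and came nearest to the threshold (log2 fold change 1.69, SE 0.37, adjusted p = 0.0688). Mcm5 had 323 and 329.8 CPM in miR-290KO ESC and 457 and 601 CPM in miR-302KO ESC (log2 fold change −0.68, SE 0.22, adjusted p = 0.208). Ccne1 had 123 and 117 CPM in miR-290KO ESC and 204 and 161 CPM in miR-302KO ESC, again without overlap or a call (log2 fold change −0.60, SE 0.28, adjusted p = 0.394). With 2 libraries in each ESC group, differences of this size were not resolved.

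The submitters' own comparisons of the same libraries with WT list more members for the double KO and for miR-290KO, but not for miR-302KO. The authors' deposited table of the double KO against WT iPSC lists 42 of the 55 members among its 8672 genes, all at an adjusted p of at most 0.0499, 9 higher and 33 lower. In the authors' deposited table these are 4 higher and 7 lower G1-S members, 2 higher and 17 lower replication members and 3 higher and 9 lower mitosis members. For each of these members the authors' log2 fold change was below that of the limma fit, as for Ccne1 (−2.11 against −1.79) and Foxm1 (1.54 against 1.85). The authors' SE was smaller for Cdk1 (0.12 against 0.41) and larger for Cdk6 (0.49 against 0.39). What part of the extra members goes with scaling, with the model or with the unit counted as a sample was not tested. The authors' deposited table for miR-290KO against WT iPSC lists 12 members, 2 higher and 10 lower, among 1429 genes, 878 higher and 551 lower. The authors' deposited table for miR-302KO lists 0 members among 43 genes. All 3 of the authors' deposited tables hold called genes only, so that the share of genes tested is not known, and over its 8672 genes the double KO table has 4038 higher and 4634 lower.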

How the data were processed

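Total RNA of 19 libraries was sequenced with the QuantSeq 3′ kit. Per the submitters' processing notes the reads were handled with Trim Galore 0.66, STAR, Salmon 1.4.0, FastQC 0.11.9, limma and DESeq2 1.34.0 on mm10, with no role or order given. The authors deposited 1 matrix of log2 values; its 6 columns that match no sample used here were left out. Its values were found to be log2 CPM with a prior scaled to library size, and whole reads came out for 12238 of 12778 genes (99.66% of values within 0.02 reads of a whole number). The 540 others have no CPM. The authors' deposited comparison tables hold a mean signal (normalized level), log2 fold changes, a test statistic (score) and p-values, and the recovered reads were checked against that mean.

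Log2 values were averaged over the 2 libraries of a colony, giving 13 samples in 6 groups, and fitted with limma 3.58.1 (R 4.3.3; trend on the mean, 7 residual degrees of freedom). Each of 10 contrasts was adjusted over all genes by the Benjamini-Hochberg method. The fit was tested on simulated data, and 25 alternatives were run. No count model was run on the recovered reads; the tests used the deposited log2 values. The named genes were, in the double KO against WT, up to 8 called members of each subset with the largest change, in other comparisons up to 5, and all D-type and E-type cyclins, Cdk2, Cdk4, Cdk6 and E2F members. The members, lists and tests were chosen with earlier results of these data known. Genes that share reads with near-identical copies may be miscounted, and counting intervals were not computed.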

Additional observations from a re-analysis of the deposited data

Results flagged for a closer look

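Of 162 sets of a member's 4 libraries in 1 KO iPSC group, 14 had a lowest or highest library whose gap to its neighbour was large enough for Dixon's test to call it an outlier, which chance does in about 1 of 20 sets. The libraries of 1 colony are not independent samples. Of these, 7 lie in the second library of miR-302KO colony 1: Ccnd3 at 253.2 CPM, Ccne2 at 51.76 CPM, Mcm6 at 219.7 CPM, Mcm7 at 1801 CPM, Pola1 at 456.1 CPM, Gins2 at 42.25 CPM and Orc1 at 20.0 CPM. There, Ccne2, Mcm7 and Pola1 were high against the other 3 libraries of the group and the other 4 were low. In the first library of miR-290KO colony 2, E2f6 (11.36 CPM), Orc6 (51.61 CPM) and Rrm1 (125.7 CPM) were low and Pole (104.1 CPM) high. In the second library of double KO colony 1, Ccnd2 (5006 CPM) was high and Mcm5 (100.4 CPM) low, both on the far side of the group from WT, and in the first library of double KO colony 2 Kif11 (85.37 CPM) was high.

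Across genotypes, the change of the double KO differed from the sum of the 2 single KO changes for 10 of the 55 members by limma, with adjusted p from 3.23e-06 to 0.0475. Over all genes 23.6% were called in this contrast. Ccnd2, Foxm1 and Mcm5 kept the call under all 25 alternatives run, and the others lost it in 2 (Cdt1) to 17 (Aurka) of them. On the log2 scale the difference was 6.24 for Ccnd2, 2.13 for Aurkb, 2.05 for E2f6, 1.82 for Foxm1 and 0.83 for Aurka, and it was −1.81 for Mcm5, −1.47 for Ccnd3, −1.31 for Pola1, −1.12 for Mcm7 and −1.01 for Cdt1.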

How the results depend on the processing

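For the genes named by the rule above, 2325 values were recomputed. Of these, 2226 kept their side of the threshold, 68 lost the call, 31 gained it and 0 were called in the opposite direction. Values not called could change sign, as the G1-S and mitosis medians did with median-of-ratios scaling. Called members outside that rule are not in these counts. They lost the call in 0 (Mcm3 against miR-302KO) to 17 of the 25 alternatives (Aurka in the contrast with the sum). Of the 25 members called in the double KO against WT, 15 kept the call under all 25 alternatives (6 of 8 G1-S, 7 of 13 replication and 2 of 4 mitosis members). Leaving out 1 sample at a time gave 19 to 26 called members in the double KO against WT, 10 to 18 against miR-290KO (16 in the full fit), 18 to 29 against miR-302KO (25), 4 to 20 for the contrast with the sum (10), 0 to 3 in miR-290KO against WT (2), 0 to 16 in miR-302KO against WT (0), 1 to 8 between miR-290KO and miR-302KO iPSC (1), 0 to 11 between miR-302KO iPSC and ESC (0) and 0 to 1 between the ESC groups (0). Without a trend the counts were 1 in miR-290KO against WT and 4 for the contrast with the sum. With only the groups compared they were 1 in miR-290KO against WT, 15 in the double KO against miR-302KO and 0 between the single KO iPSC. Chromosome centring gave 5 in miR-290KO against WT (2 higher and 3 lower) and 2 between the single KO iPSC. Leaving out the second library of miR-302KO colony 1 gave 4 and 2 in the same comparisons, and counting each library as a sample gave 2 between the single KO iPSC, with or without colony as a random effect. A prior of 5 reads gave 1 between the ESC groups. The cause of these differences was not tested. The share of all genes called also depends on the fit and is not given beside these counts. The counts therefore show a spread over settings, not a result particular to the members.

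Replicate numbers were not taken to pair the samples, since colonies were derived independently. Deviations of same-numbered samples correlated at −0.27 to 0.18, with 4 of 30 values above 0.1. Between groups of 2 samples both numbers give the same value. The 30 values are therefore not separate checks and cannot decide whether the numbers pair the samples. With a replicate block the counts were 22 in the double KO against WT, 1 in miR-290KO against WT and 5 for the contrast with the sum. These counts, too, are given without the share of all genes. Depth limits Cdk6, E2f2 and WT Ccnd2, at about 3 to 29 CPM in WT. Ccne2 and E2f6 lay in the same WT range and share this limit, and E2f3 and E2f5 reached slightly above it. With 2 or 3 samples a group, changes of the size seen in the single KO lines were mostly not resolved.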
